A study of Mus musculus with 20 samples.

Results

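Lysosome and proton pump genes were followed through RNA sequencing (RNA-seq) of mouse bone marrow-derived macrophages (BMDMs), which are primary macrophages grown in culture from bone marrow. The set was a list of 48 gene symbols looked up in a count table of 21963 genes. All 48 were found, each as 1 row, and all 48 passed the filter on low counts that left 11707 genes for testing. By role they were 3 transcription factors, 7 membrane proteins, 4 transporters and channels, 10 proteases, 10 glycan hydrolases, 3 lipid hydrolases and carriers, 5 genes of the membrane sector (V0) of the vacuolar proton pump, its accessory protein included, and 6 genes of its cytosolic sector (V1). The rule looked up symbols alone, but the list itself was chosen with earlier results of these data known.

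The 20 libraries formed 5 groups. Wild-type (WT) BMDMs were left untreated (n = 4), given zymosan for 3 h (n = 5), or given zymosan for 3 h together with BAPTA (n = 4), and Mcu-/- BMDMs were left untreated (n = 4) or given zymosan for 3 h (n = 3). Per the study's methods the mice were 15 to 25 weeks old. Its methods for quantitative PCR give zymosan, a particle of yeast cell wall, at 2 particles per cell. They give BAPTA-AM, a membrane-permeant Ca2+ chelator, at 10 µM, added before zymosan. Its RNA-seq methods state no dose, so these doses are carried over. Mcu encodes the pore of the mitochondrial Ca2+ uniporter, and the Mcu-/- cells came from mice with a floxed Mcu allele and a Cre driven by Cx3cr1, a gene of the monocyte and macrophage lineage. Whether the WT mice carried that Cre, and whether replicates were separate animals, was not given in the sources used here. P-values therefore rest on the spread between these cultures, pooled over all libraries of a fit.

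Lysosomes break down what a macrophage ingests, with acid hydrolases that work at a low pH set by the vacuolar proton pump, a rotary ATPase whose V1 sector burns ATP while its V0 sector carries protons through the membrane. The related factors TFEB, TFE3 and MITF bind a short promoter element and switch on many lysosome genes together, and Ca2+ released from the lysosome through the channel encoded by Mcoln1 is one of the signals that can activate TFEB. The product of Glb1, lysosomal beta-galactosidase, is the enzyme behind the beta-galactosidase stain used as a marker of senescent cells.

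The libraries held 14420402 to 23954552 counts. Levels are given in CPM, counts scaled to a common library size with trimmed mean of M values factors, as mean ± SD over the n of each group unless each library is named. Mcu stood at 6.10 to 9.55 CPM in the 13 WT libraries and at 2.63 to 4.05 CPM in the 7 Mcu-/- libraries, so residual transcript counts remained. Untreated Mcu-/- replicate 4 stood apart: in a chi-square comparison of counts, averaged over genes, its 3 pairs with its own group gave 217 to 225, and the other 28 pairs of replicates gave 1.60 to 6.53. Each fit pooled the spread over all its libraries, so that library also entered the p-values of comparisons between other groups. The common biological coefficient of variation, the estimated spread between replicates beyond counting error, was 12.4% with it and 3.56% without it. The counts of called genes below are therefore also given without that library, for the whole set and for some groups of it. The columns of the 3 zymosan-treated Mcu-/- libraries are numbered 3, 4 and 5, and the labels number their samples otherwise, so these libraries are named by column.

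Macrophage markers were present in all groups. The summed level of 9 macrophage markers was 13900 to 16900 CPM in WT libraries, 9720 to 10100 CPM in zymosan-treated Mcu-/- libraries, and 8000 to 15300 CPM in untreated Mcu-/- libraries. Within that list Lyz2 and Itgam averaged 3240 and 275 CPM in zymosan-treated Mcu-/- cells against 8180 and 869 CPM in zymosan-treated WT cells, whereas Csf1r and Fcgr1 averaged 1080 and 573 CPM against 562 and 212 CPM. The 6 osteoclast markers summed to 237 to 339 CPM in WT, 81.7 to 297 CPM in untreated Mcu-/- and 117 to 125 CPM in zymosan-treated Mcu-/- libraries. Group means ran from 49.3 to 104 CPM for Acp5 and from 71.7 to 216 CPM for Mmp9. Those of Calcr, Oscar, Ocstamp and Dcstamp were at most 0.198 CPM in every group. The 5 fibroblast and stroma markers summed to 1.41 to 4.44 CPM in WT and 22.2 to 29.1 CPM in zymosan-treated Mcu-/- libraries, mostly from Col1a1. The 7 neutrophil markers summed to at most 5.27 CPM, the 5 dendritic cell markers to at most 11.9 CPM, mostly Xcr1, and the 5 lymphocyte markers to at most 2.57 CPM. The 4 mast cell and basophil markers summed to at most 0.155 CPM and the 4 erythroid markers to at most 0.657 CPM. The part of these marker differences in the genotype results below was not tested. In bulk cultures fewer cells of a type and less RNA per cell cannot be told apart.

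The element bound by TFEB, TFE3 and MITF is an E-box with the core CACGTG, usually preceded by a T. RefSeq promoters (GRCm38.p6, 250 bases before to 50 after the start site) were matched by symbol for 40 of the 48 genes, all but Npc1, Ctsb, Ctsh, Asah1, Atp6v0d2, Atp6v1b2, Atp6v1c1 and Atp6v1h. The core CACGTG, which reads the same on both strands, was present in 13 of the 40 genes (32.5%), against 8.09% of the 27025 genes in the promoter table. The longer TCACGTG, searched on both strands and always containing the core, was present in 12 of the 40 (30.0%), against 4.29% of all genes. The 10-letter palindrome known as the CLEAR consensus, which contains both, was present in 0 of the 40, against 0.370% of all genes. These shares are descriptions of letters in fixed windows and not of bound sites.

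The promoters below are shown because they carry the element in genes whose transcripts moved in different ways: Glb1, Naglu, Ctsd and Mcoln1 were higher in zymosan-treated Mcu-/- cells, Gla, Atp6v1a and Lamp1 were higher with zymosan in both genotypes (Lamp1 in neither under plain library totals), and Sgsh was lower with zymosan in both. Capitals mark each CACGTG with its flanking T or A, and each stretch lies before the start site on the gene's own strand, from GRCm38.p6.
Lamp1 (chr8:13159089-13159160, + strand): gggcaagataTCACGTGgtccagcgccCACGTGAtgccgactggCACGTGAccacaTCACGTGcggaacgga
Mcoln1 (chr8:3500437-3500489, + strand): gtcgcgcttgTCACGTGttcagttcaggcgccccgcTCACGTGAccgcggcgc
Ctsd (chr7:142387902-142387937, - strand): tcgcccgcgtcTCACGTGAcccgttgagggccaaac
Glb1 (chr9:114401018-114401048, + strand): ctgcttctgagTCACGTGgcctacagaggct
Naglu (chr11:101070009-101070039, + strand): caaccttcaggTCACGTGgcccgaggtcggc
Gla (chrX:134601185-134601245, - strand): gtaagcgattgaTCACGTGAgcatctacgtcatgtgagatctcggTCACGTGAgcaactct
Sgsh (chr11:119355520-119355555, - strand): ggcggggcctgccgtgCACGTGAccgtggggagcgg
Atp6v1a (chr16:44139372-44139402, - strand): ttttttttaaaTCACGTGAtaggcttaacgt
In the stretches shown Lamp1, which encodes a main glycoprotein of the lysosomal membrane, held 4 elements, Mcoln1 and Gla held 2, and the others 1. Ctsd held a further element outside its stretch, 245 bases before the start site.

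**Figure D1:**
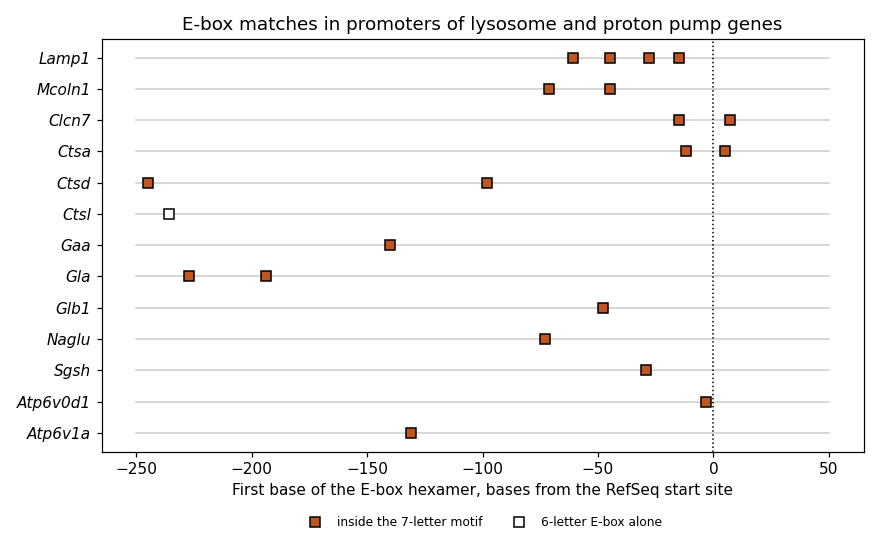
Position of each CACGTG core in the promoters of the 13 genes that held one, in bases from the RefSeq start site (dotted line at 0; grey lines span the window from 250 bases before to 50 after). Filled squares lie inside the 7-letter motif, the open square of Ctsl is the 6-letter core alone, and Lamp1 held 4 of the squares.

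Transcripts of the set made up 2.21% ± 0.0341 of all counts in untreated WT cells, 2.04% ± 0.0386 with zymosan, 2.01% ± 0.0296 with zymosan and BAPTA-AM, 2.76% ± 0.976 in untreated Mcu-/- cells and 3.62% ± 0.0358 in zymosan-treated Mcu-/- cells. The untreated Mcu-/- share ran from 2.26% to 4.22%, and its highest value was that of replicate 4. The 3 zymosan-treated Mcu-/- libraries, at 3.59% to 3.66%, lay above every WT library. Per kilobase of exon, Ctsd (cathepsin D, an aspartic protease) had the highest level in untreated WT cells at 931 CPM per kb, followed by Ctsb at 536, Ctss at 449, Lamp1 at 400.3 and Laptm5 at 387 CPM per kb. Among pump genes on the same scale, Atp6v0d1 (103 CPM per kb), Atp6v1b2 (85.6) and Atp6ap1 (75.5) led, while the alternative V0 subunit gene Atp6v0d2 was at 2.32 CPM per kb. At the low end, Ctsk, the collagen-degrading cathepsin of osteoclasts, was at 0.370 CPM per kb, with 5 to 19 counts in each of the 20 libraries, and no difference in it was detectable at this depth in any comparison.

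**Figure D2:**
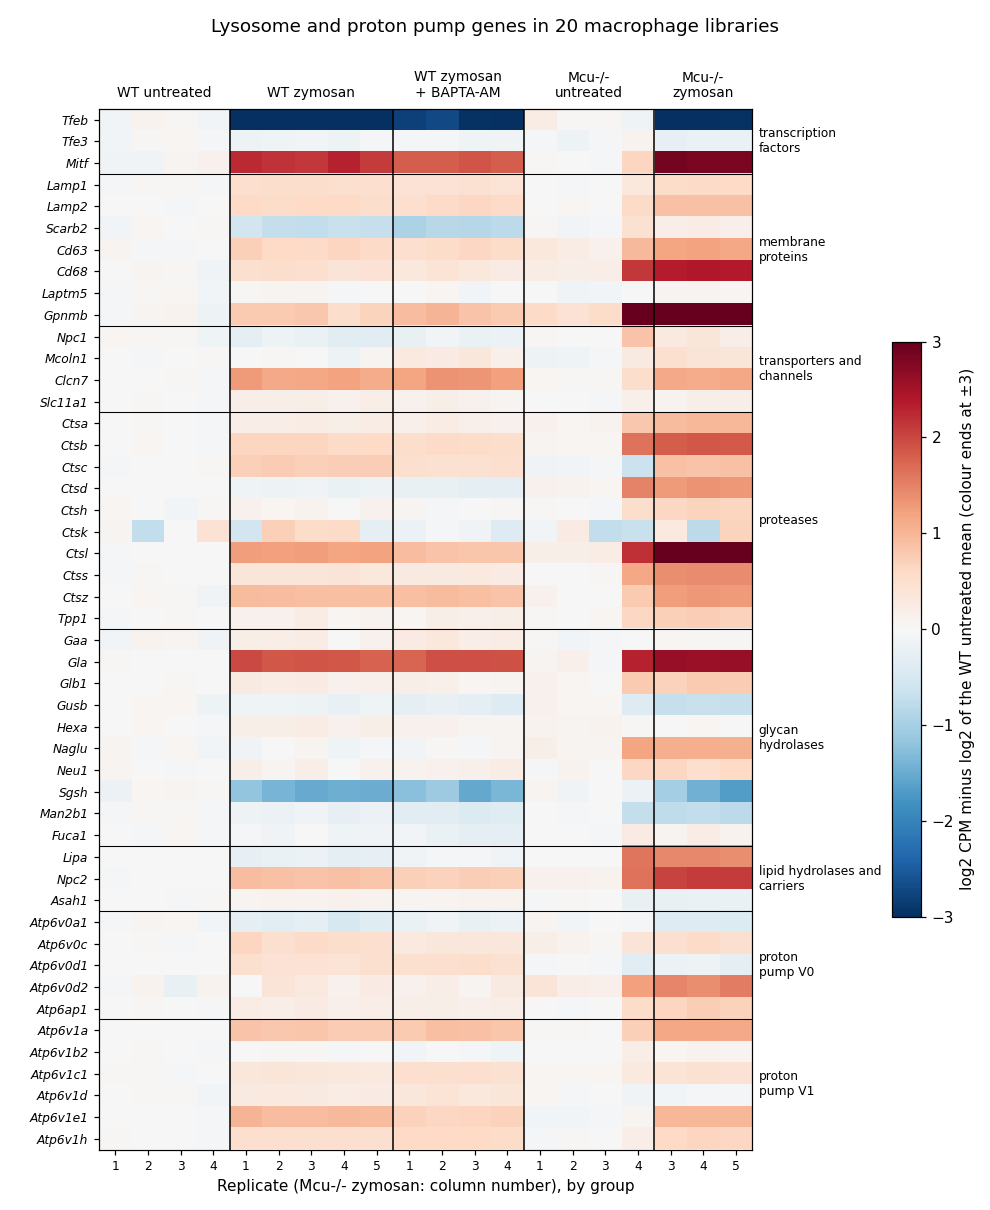
Level of each of the 48 genes (rows, by role) in each of the 20 libraries (columns, by group), as log2 CPM minus log2 of the untreated WT mean, with 0.1 CPM added to both; red is higher and blue lower, with the colour ending at a log2 of 3 in either direction. Replicate 4 of untreated Mcu-/- looks unlike its group over most rows and resembles zymosan-treated Mcu-/- cells for Gpnmb, Cd68 and Ctsd but not for Tfeb or Mitf.

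Zymosan changed the set in WT cells unevenly. Among the transcription factors Mitf rose 4.58-fold while Tfeb fell by 3.33 on the log2 scale and Tfe3 was lower by a small step. The glycosidase Gla and the protease Ctsl rose most among the enzymes, the chloride-proton exchanger gene Clcn7 and the pump subunit gene Atp6v1e1 rose as well, and the heparan sulfate hydrolase Sgsh and the receptor Scarb2 fell. In edgeR's quasi-likelihood test at an adjusted p below 0.05, 23 of the 48 genes were higher and 5 lower, 47.9% and 10.4%, against 32.4% higher and 36.8% lower of all genes tested. Without untreated Mcu-/- replicate 4, which is in neither group, 32 were higher and 10 lower, against 37.2% and 41.3% of all genes; Cd68, Gpnmb, Ctsa, Ctsh, Ctss, Tpp1, Glb1, Neu1 and Atp6v0d2 joined the higher and Npc1, Ctsd, Gusb, Man2b1 and Lipa the lower genes. The median log2 fold change was 0.21 over the set and -0.04 over all genes, and 36 genes had no overlap between the groups, against 69.5% of all genes.

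These directions are relative to the scaling. With plain library totals the median of all genes in this comparison shifted by -0.49 on the log2 scale, and 8 genes were called higher and 27 lower. Slc11a1, Gaa, Hexa, Asah1, Atp6v0d1, Atp6ap1, Atp6v1c1 and Atp6v1d, all called higher with rescaled sizes, then had a log2 fold change below 0. Lamp1, Lamp2, Cd63, Ctsb, Npc2, Atp6v0c and Atp6v1h kept a log2 above 0 but no longer passed the test. The rises that passed under either scaling were those of Mitf, Gla, Ctsl, Ctsz, Ctsc, Clcn7, Atp6v1a and Atp6v1e1, and the falls those of Tfeb, Tfe3, Sgsh, Scarb2 and Atp6v0a1. With the size factors of DESeq2 no called gene changed sign.

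Tfeb encodes the best known activator of lysosome genes. Its level was 35.8, 40.8, 38.4 and 35.7 CPM in the 4 untreated WT libraries and 4.04, 3.98, 3.52, 2.68 and 4.49 CPM in the 5 with zymosan. The groups lay far apart, with every zymosan library far below every untreated one. In log2 terms the change was -3.33 ± 0.12 (± SE from here on; edgeR adjusted p = 4.57e-15). Mitf, which encodes the factor best known from melanocytes and osteoclasts, went the other way, from 31.4, 31.3, 35.4 and 36.6 CPM to 160.1, 151, 147, 167 and 145 CPM. Its log2 difference was 2.20 ± 0.11 (edgeR adjusted p = 1.22e-12), and the groups did not overlap. Tfe3, the third member of the family, was at 153 ± 6.51 CPM and 142 ± 3.94 CPM (n = 4 and 5), with overlapping values and a log2 of -0.11 ± 0.05 (edgeR adjusted p = 0.0332). Under plain library totals all 3 kept their direction.

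**Figure D3:**
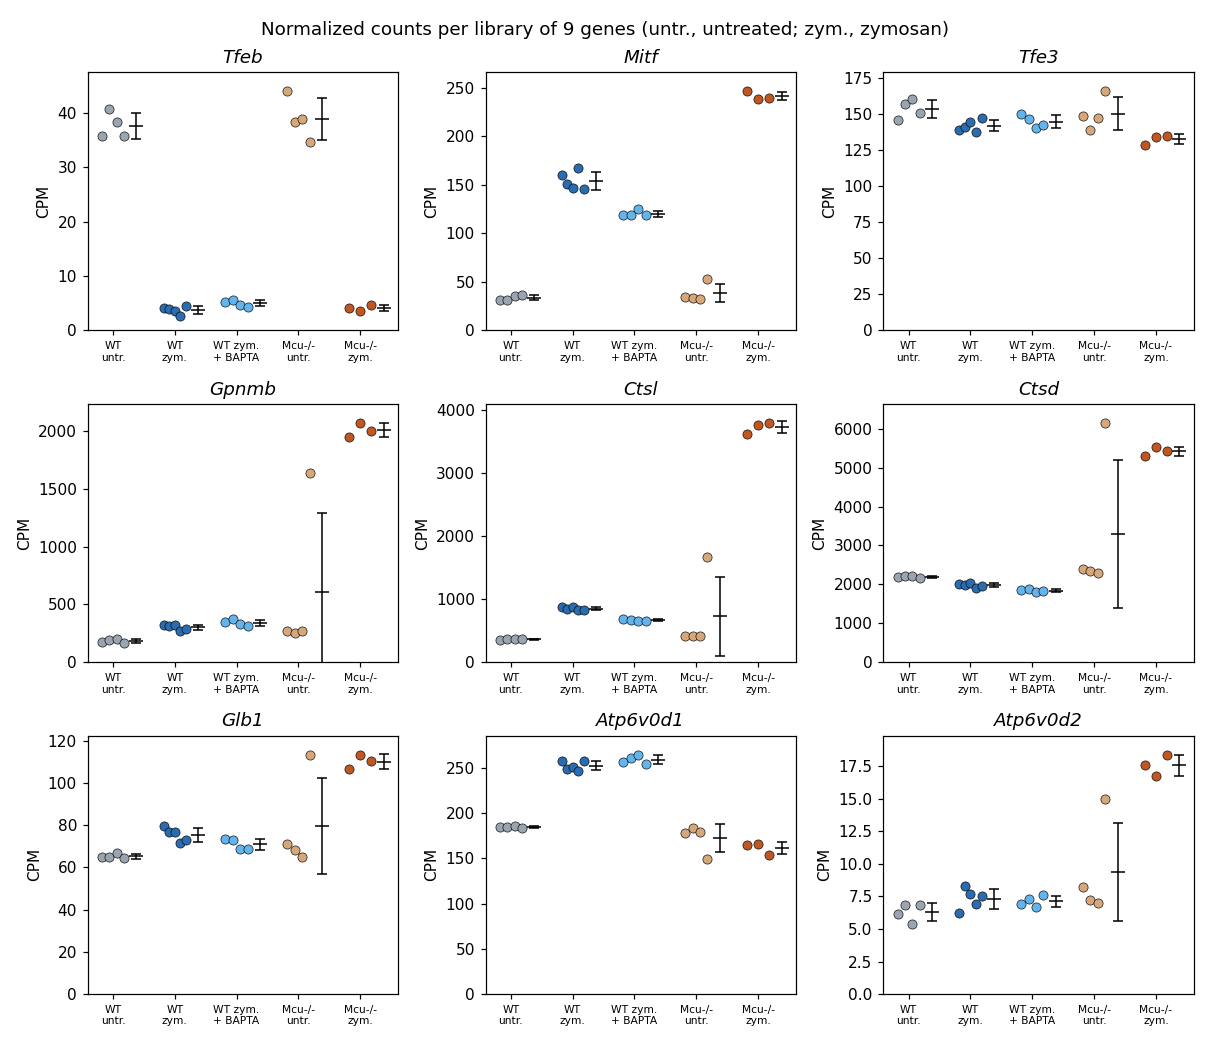
CPM (linear axes from 0) in each library for 9 genes; points are libraries, and the black bars to their right give the group mean and SD, ended at 0 where the SD is larger than the mean (Gpnmb in untreated Mcu-/- cells). Tfeb was at 34.6 to 44.1 CPM without and 2.68 to 5.68 CPM with zymosan over both genotypes, Mitf was highest in the zymosan-treated Mcu-/- libraries, and the single high or low point of untreated Mcu-/- cells in the lower 6 panels is replicate 4.

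Among the membrane proteins, 3 of 7 were higher and 1 lower, or 5 and 1 without untreated Mcu-/- replicate 4. These counts, and those of the role groups that follow, are to be read against all genes. Of these, 32.4% were higher and 36.8% lower, or 37.2% and 41.3% without that library. Lamp2, which is needed for lysosome fusion and chaperone-mediated uptake, rose by a log2 of 0.58 ± 0.08 and Lamp1 by 0.51 ± 0.06, and under plain library totals these were 0.09 and 0.01 and did not pass (edgeR adjusted p = 0.254 and 0.781). Scarb2 (LIMP-2), the carrier that brings glucocerebrosidase to lysosomes, was at 94.1, 103, 98.6 and 103 CPM untreated and 67.6, 60.5, 59.7, 62.9 and 61.8 CPM with zymosan. Every zymosan library was lower, and the log2 difference was -0.67 ± 0.08 (edgeR adjusted p = 4.77e-07). Gpnmb, a glycoprotein of endosomes and lysosomes, went from 184 ± 14.9 to 303 ± 23.6 CPM without overlap but did not pass the test with all 20 libraries (log2 0.72 ± 0.41, edgeR adjusted p = 0.126), whereas without untreated Mcu-/- replicate 4 its adjusted p was 1.65e-16.

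Of the transporters and channels, Clcn7, whose exchanger feeds chloride into the lysosome, rose by a log2 of 1.18 ± 0.08, from 66.0 ± 1.34 to 150 ± 6.68 CPM. Mcoln1, the lysosomal Ca2+ channel gene, was at 29.3 ± 0.698 and 29.2 ± 1.75 CPM, with overlapping values, and did not pass the test with rescaled sizes. Under plain library totals it was called lower (log2 -0.50, edgeR adjusted p = 1.13e-06). Npc1, the cholesterol exporter gene, did not pass with all libraries and rescaled sizes. It passed as lower without untreated Mcu-/- replicate 4, and also under plain library totals (log2 -0.75, edgeR adjusted p = 7.65e-06). Slc11a1, a metal ion exporter of phagosomes, was higher except under plain library totals. Among the proteases 4 of 10 were higher and 0 lower with all libraries, and 8 higher and 1 lower without untreated Mcu-/- replicate 4. Ctsl (cathepsin L) was at 355, 364, 369 and 369 CPM untreated and 871, 851, 869.7, 825 and 835 CPM with zymosan. Every zymosan library was far above the untreated ones, with a log2 difference of 1.22 ± 0.31 (edgeR adjusted p = 0.00170). Part of its reads could be shared, since an antisense gene, Gm47123, overlaps 26.8% of its exon bases and the strand setting of the counting was not stated. Ctsz, Ctsc and Ctsb were the others that passed with all libraries, Ctsb not under plain library totals.

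Of the 10 glycan hydrolases 3 were higher and 1 lower with all libraries, and 5 and 3 without untreated Mcu-/- replicate 4; of the 3, Gaa and Hexa turned below 0 under plain library totals. Gla (alpha-galactosidase A, the enzyme missing in Fabry disease) was at 44.0, 42.7, 43.2 and 43.1 CPM untreated and 170.1, 157, 159, 158 and 148 CPM with zymosan. The log2 difference was 1.87 ± 0.36 (edgeR adjusted p = 1.25e-04), and no libraries overlapped. Sgsh (sulfamidase, which removes sulfate from heparan sulfate) went from 25.6, 30.0, 30.6 and 29.7 CPM to 12.8, 10.9, 10.1, 10.5 and 10.3 CPM, a log2 of -1.41 ± 0.11 (edgeR adjusted p = 1.18e-09). All zymosan libraries were below all untreated ones, although Card14 on the opposite strand overlaps 21.6% of Sgsh exon bases. Glb1 was at 65.1, 65.0, 66.9 and 64.3 CPM and then 79.4, 76.8, 76.9, 71.5 and 72.8 CPM, higher in every zymosan library by this scaling. It did not pass the test with all libraries (log2 0.21 ± 0.11, edgeR adjusted p = 0.108) but passed without untreated Mcu-/- replicate 4 (adjusted p = 6.08e-06). Under plain library totals it was called lower instead (log2 -0.28, edgeR adjusted p = 0.0130).

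Of the pump genes 5 of 6 in V1 and 3 of 5 in V0 were higher and 1 in V0 lower with rescaled sizes (5 and 4 higher without untreated Mcu-/- replicate 4), but under plain library totals Atp6v1a and Atp6v1e1 were the genes still called higher, and Atp6v0a1, Atp6ap1, Atp6v1c1 and Atp6v1d were among those lower. Atp6v1e1, part of the stalk that holds V1 in place, rose most (log2 0.96 ± 0.04, 140.1 ± 2.64 to 272 ± 7.10 CPM). The catalytic subunit gene Atp6v1a rose by a log2 of 0.81 ± 0.10. Atp6v0a1, one of several alternative genes for the proton-conducting a subunit, was lower (log2 -0.34 ± 0.05). Of the paired d subunit genes, Atp6v0d1 rose by 0.45 ± 0.05, though not under plain library totals, and Atp6v0d2 was at 6.31 ± 0.685 and 7.34 ± 0.772 CPM and did not pass the test. Npc2, the soluble partner of Npc1 that hands cholesterol to it, had a log2 of 0.88 ± 0.23, called with rescaled sizes and not under plain library totals.

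Genes of the same organelle outside the set numbered 93, of which 84 were tested. In WT cells with zymosan 29 of these were higher (34.5%) and 23 lower (27.4%), and without untreated Mcu-/- replicate 4 39 and 27 (46.4% and 32.1%), to be read against the shares of all genes given above. The 2 largest rises were Mcoln2, a lysosomal channel gene related to Mcoln1 (log2 3.18 ± 0.09), and Tfec, the myeloid member of the Tfeb family (log2 2.20 ± 0.09). The 2 largest falls were Slc36a1, an exporter of amino acids from lysosomes (log2 -2.31 ± 0.09), and Pla2g15, a lysosomal phospholipase (log2 -1.01 ± 0.08).

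The comparison of zymosan-treated Mcu-/- with zymosan-treated WT cells asked which transcripts differ where Mcu is deleted. Most protease and membrane protein genes were higher in Mcu-/- cells, and the largest rises of the set were Gpnmb at 6.63-fold, Ctsl at 4.38-fold, Cd68 at 3.75-fold, Lipa at 3.15-fold and Ctsd at 2.74-fold. The pump genes did not move together, and Atp6v0d1 and Atp6v1d were lower while Atp6v0d2 was higher. In edgeR's test 26 of the 48 genes were higher (54.2%) and 6 lower (12.5%), against 31.8% and 30.3% of all genes tested. Without untreated Mcu-/- replicate 4, which is in neither group, 31 were higher and 8 lower, against 36.4% and 33.7%; Lamp1, Ctsc, Gla, Atp6v1b2 and Atp6v1c1 joined the higher and Gaa and Tfe3 the lower genes. The median log2 fold change was 0.32 over the set and 0.02 over all genes, 38 genes did not overlap between the groups against 64% of all genes, and 18 were higher and 3 lower by a log2 of at least 0.5 against 16.3% and 16.8% of all genes. No called gene changed sign under plain library totals or the size factors of DESeq2, and Atp6v1h lost its call under plain totals.

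**Figure D4:**
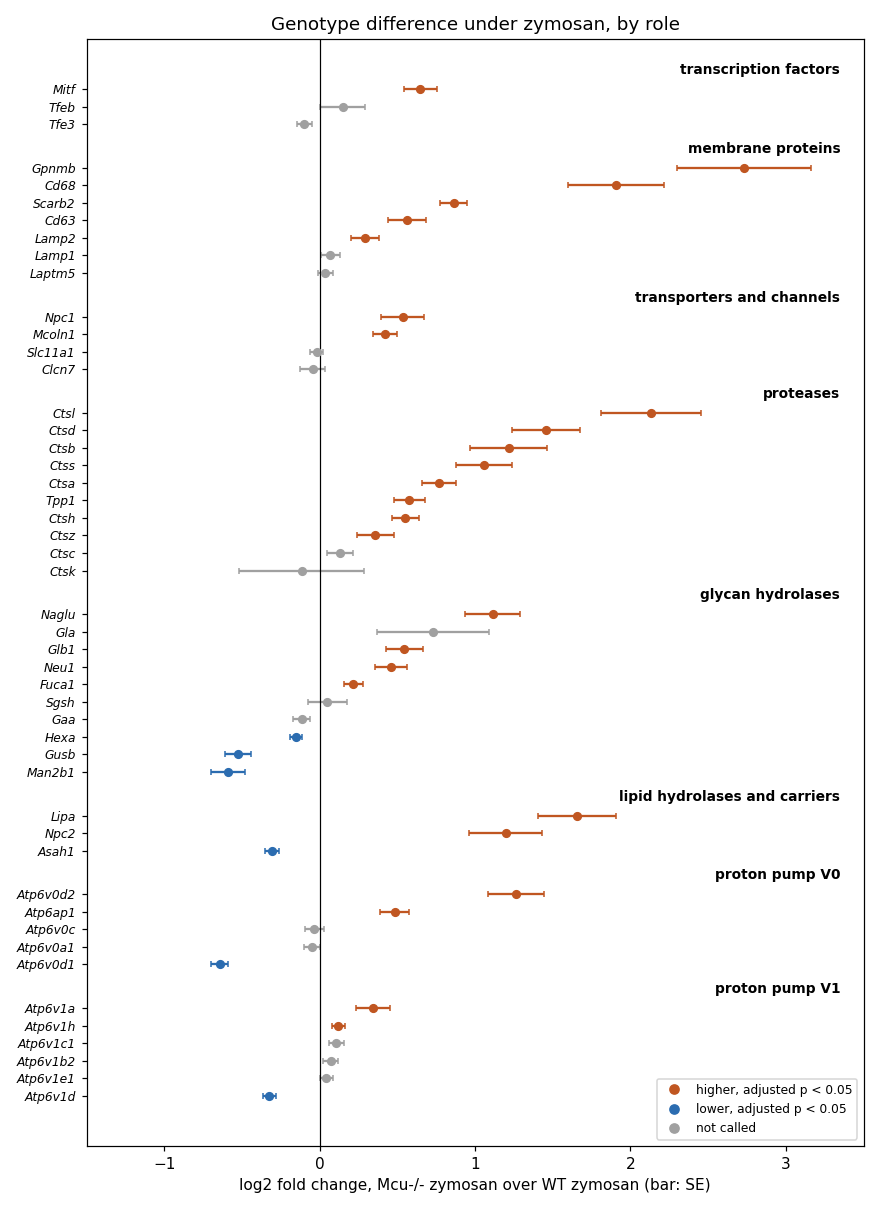
Log2 fold change of each of the 48 genes in zymosan-treated Mcu-/- over WT cells, by role, with bars of 1 SE from the edgeR fit of all 20 libraries. Orange genes were higher and blue genes lower at an adjusted p below 0.05, against 31.8% higher and 30.3% lower of all genes tested. Of the 10 proteases 8 are orange, as are 5 of the 7 membrane proteins. The 11 pump genes hold 4 orange and 2 blue points. No called direction changed under plain library totals.

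Gpnmb stood at 319, 317, 320, 267 and 289.9 CPM in WT and 1946, 2071 and 2004 CPM in Mcu-/- libraries with zymosan. Every Mcu-/- value was several times the highest WT value. In log2 terms the difference was 2.73 ± 0.43 (edgeR adjusted p = 3.66e-05). Cd68 (macrosialin), the heavily glycosylated lysosomal protein used as a macrophage stain, was at 309.9, 321, 317, 291 and 304 CPM in WT and 1142, 1175 and 1158 CPM in Mcu-/- libraries. The groups were widely separated, with a log2 difference of 1.91 ± 0.31 (edgeR adjusted p = 4.34e-05). Scarb2, Cd63 and Lamp2 were higher as well, by log2 values of 0.86, 0.56 and 0.29. Lamp1 was at 1520 ± 17.6 and 1595 ± 22.4 CPM, a log2 difference of 0.07 ± 0.06 that did not pass the test (edgeR adjusted p = 0.326), and neither did that of Laptm5, a membrane protein gene of blood cells.

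All proteases but Ctsc and Ctsk were higher with all libraries, 8 of 10 (80%), and none was lower, against 31.8% and 30.3% of all genes. Ctsl was at 871, 851, 869.7, 825 and 835 CPM in WT and 3623, 3763 and 3792 CPM in Mcu-/- libraries, with no overlap and a log2 difference of 2.13 ± 0.32 (edgeR adjusted p = 2.26e-05). Ctsd was at 2015, 1974, 2025, 1902 and 1954 CPM in WT and 5299.6, 5538 and 5416 CPM in Mcu-/- libraries. Every Mcu-/- value was well above every WT value, and the log2 difference was 1.46 ± 0.22 (edgeR adjusted p = 2.22e-05). The annotation places 34.4% of Ctsd exon bases inside Gm49369 on the same strand, so reads could be shared between them. Ctsb (cathepsin B), the protease with the highest counts, was at 5007 ± 118 CPM in WT (n = 5) and 11637 ± 214 CPM in Mcu-/- (n = 3), and Ctss (cathepsin S, which trims the invariant chain of MHC class II) at 778 ± 13.7 and 1620.5 ± 17.2 CPM. Ctsa, Tpp1, Ctsh and Ctsz rose by log2 values of 0.77, 0.58, 0.55 and 0.36.

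The glycan hydrolases went both ways, with 4 higher (40%), 3 lower (30%) and 3 that did not pass the test. Of all genes 31.8% were higher and 30.3% lower, so these shares were near the background. Without untreated Mcu-/- replicate 4 there were 5 higher and 4 lower, against 36.4% and 33.7% of all genes. Glb1 was at 79.4, 76.8, 76.9, 71.5 and 72.8 CPM in WT and 106, 113 and 111 CPM in Mcu-/- libraries, with every Mcu-/- library above every WT one. The log2 difference was 0.54 ± 0.12 (edgeR adjusted p = 7.65e-04), or 1.46-fold. Naglu, which like Sgsh takes part in breaking down heparan sulfate, rose most in this group (log2 1.11 ± 0.18, 37.8 ± 2.28 to 81.8 ± 1.13 CPM), and Neu1 and Fuca1 rose by less. Man2b1 (lysosomal alpha-mannosidase) was at 451, 446, 464, 423 and 441 CPM in WT and 296, 300 and 292 CPM in Mcu-/- libraries, and Gusb (beta-glucuronidase) at 275, 275, 274, 259 and 277 and 189, 191 and 187 CPM. Both lay lower in all Mcu-/- libraries, by log2 values of -0.59 ± 0.11 and -0.53 ± 0.09 (edgeR adjusted p = 1.81e-04 and 4.80e-05). Hexa, the alpha subunit of beta-hexosaminidase, was lower by a small step (log2 -0.15 ± 0.04).

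Lipa, the acid lipase that frees cholesterol and fatty acids from lipoproteins, was at 389, 401, 407, 377 and 387 CPM in WT and 1257, 1239 and 1213 CPM in Mcu-/- libraries, a log2 of 1.66 ± 0.25 (edgeR adjusted p = 2.74e-05). Both cholesterol carriers rose with it, Npc2 by 1.20 ± 0.24 and Npc1 by 0.54 ± 0.14. Asah1 (acid ceramidase) was lower instead, at 366 ± 3.17 CPM in WT and 296 ± 1.57 CPM in Mcu-/- cells (log2 -0.31 ± 0.05). Of the channels, Mcoln1 was at 29.7, 30.1, 29.0, 26.4 and 31.0 CPM in WT and 41.0, 38.5 and 37.9 CPM in Mcu-/- libraries, higher in each Mcu-/- library, with a log2 of 0.42 ± 0.08 (edgeR adjusted p = 2.02e-04). Clcn7 and Slc11a1 did not pass the test.

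In the pump, the d subunit genes moved in opposite directions. The d subunit sits on the V0 ring where V1 docks, and Atp6v0d1 is the form found in most cells whereas Atp6v0d2 is found in osteoclasts and macrophages. Atp6v0d1 was at 258, 249, 251, 247 and 258 CPM in WT and 165, 166 and 154 CPM in Mcu-/- libraries with zymosan. All Mcu-/- values were lower, with a log2 of -0.64 ± 0.05 (edgeR adjusted p = 1.75e-08). Atp6v0d2 was at 6.27, 8.27, 7.70, 6.90 and 7.54 CPM in WT and 17.6, 16.8 and 18.4 CPM in Mcu-/- libraries, all higher, with a log2 of 1.26 ± 0.18 (edgeR adjusted p = 1.36e-05). The more abundant gene was still Atp6v0d1, at 90.1 against 6.48 CPM per kb in zymosan-treated Mcu-/- cells. Atp6ap1, the accessory protein gene, rose by 0.48 ± 0.09, the V1 genes Atp6v1a and Atp6v1h by 0.35 and 0.12, and Atp6v1d, a gene of the central rotor, fell by 0.32 on the log2 scale. The other V0 and V1 genes did not pass the test with all libraries. Without untreated Mcu-/- replicate 4, V1 had 4 higher and 1 lower and V0 had 2 and 1, against 36.4% and 33.7% of all genes.

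Mitf was at 247, 239 and 239 CPM in the zymosan-treated Mcu-/- libraries, above each of the 5 WT values given before, with a log2 of 0.65 ± 0.11 (edgeR adjusted p = 6.07e-05). Tfeb was at 4.12, 3.56 and 4.73 CPM there, overlapping the WT values, with a log2 of 0.15 ± 0.14 (edgeR adjusted p = 0.383). Tfe3 was at 132 ± 3.38 CPM (log2 -0.10 ± 0.05, edgeR adjusted p = 0.0972). Of the 12 genes with TCACGTG in the promoter, 6 were higher and 1 lower, with a median log2 of 0.38, and of the 28 genes whose promoter lacked it 15 were higher and 4 lower, with a median of 0.26. Of all genes 31.8% were higher and 30.3% lower. Without untreated Mcu-/- replicate 4 the counts of the 2 sets were 8 and 2, and 16 and 5, against 36.4% and 33.7% of all genes. The 2 sets were not tested against each other.

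Among the 84 tested genes outside the set, 36 were higher (42.9%) and 28 lower (33.3%) in zymosan-treated Mcu-/- cells, against 31.8% and 30.3% of all genes. Without untreated Mcu-/- replicate 4 the counts were 41 (48.8%) and 31 (36.9%), against 36.4% and 33.7% of all genes. The counts of single lists that follow are to be read against the same shares. The other hydrolases and cofactors had 18 of 27 higher and 7 lower, and Tfec was higher by a log2 of 1.69 ± 0.08. Of the 9 tested pump genes outside the set, 1 was higher and 6 lower (2 and 6 without that library). Genes of nutrient sensing on the lysosome had 3 of 14 higher and 7 lower, with Flcn (folliculin, which controls the Rag GTPases) lower by a log2 of -1.55 ± 0.08, and Sort1, a sorting receptor for lysosomal proteins, had a log2 of -1.81 ± 0.23. The delivery genes counted 3 higher and 1 lower of 6, the other membrane proteins and transporters 8 and 5 of 19, and the tethering complexes 3 and 2 of 9 (5 and 2 without that library).

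Without zymosan the same genotype comparison gave no call with all 20 libraries. In edgeR's test 0 of 48 genes were higher and 0 lower, against 0.128% and 0.222% of all genes; 21 of the 48 had an unadjusted p below 0.05, and DESeq2 called 1 higher. Without untreated Mcu-/- replicate 4, 7 genes were higher (14.6%) and 0 lower, against 1.53% and 1.83% of all genes; 16 of the 48 had an unadjusted p below 0.05. The 7 were Gpnmb, Cd63, Cd68, Ctsl, Npc2, Ctsd and Ctsa. All 7 were also among the genes higher in Mcu-/- cells with zymosan, but these numbered 26 of the 48 (54.2%) with all libraries and 31 without replicate 4. The overlap was not tested. The 2 comparisons share no library, but whether their cultures came from separate animals was not given. With all 20 libraries 12 of the 48 did not overlap between genotypes, against 7.09% of all genes, and without replicate 4 it was 15, against 13.8%. Without replicate 4 the median log2 fold change was 0.02 over the set.

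Replicates 1 to 3 of untreated Mcu-/- cells differed from WT by small steps. Gpnmb was at 179, 195, 197 and 165 CPM in WT and 272, 248, 268 and 1634 CPM in Mcu-/- replicates 1 to 4. The first 3 Mcu-/- libraries all lay above WT and the fourth far above both, so the log2 fold change was 0.51 without replicate 4 (edgeR adjusted p = 1.05e-08) and 1.72 with it (adjusted p = 0.127). Cd68 was at 221, 235, 229 and 209 CPM in WT and 259, 251, 256 and 971 CPM in Mcu-/- libraries, and Ctsl at 355, 364, 369 and 369 and 408, 411, 423 and 1669 CPM. Without replicate 4 both had a log2 fold change of 0.19, Cd63 of 0.23, Npc2 of 0.12, Ctsd of 0.10 and Ctsa of 0.10. Glb1 was at 71.1, 68.1, 65.1 and 113 CPM, Lamp2 at 455, 480.1, 466 and 679 CPM, Atp6v0d1 at 178, 183, 179 and 149 CPM, and none of these 3 passed the test in either fit.

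Replicate 4 of untreated Mcu-/- cells lay on the same side of the untreated WT mean as zymosan-treated Mcu-/- cells for 45 of the 48 genes, against 27 to 34 genes in replicates 1 to 3. In it 27 genes were off the untreated WT mean by a log2 of over 0.5, against 0 to 2 genes in the others. Its Gla, at 45.6, 47.7, 42.4 and 215 CPM over replicates 1 to 4, and its Lipa, at 462, 460, 463 and 1409 CPM, were well above the rest of the group. Its Tfeb and Mitf, at 44.1, 38.4, 38.9 and 34.6 CPM and 34.7, 33.8, 32.9 and 52.8 CPM over the same replicates, were not at the levels of zymosan-treated cells. Ctsc (cathepsin C, which activates serine proteases of granules) was the clearest gene that went against that likeness, at 727, 738, 758 and 504 CPM untreated and 1444, 1426 and 1438 CPM with zymosan. Its macrophage marker sum was 8000 CPM and its fibroblast and stroma marker sum 16.2 CPM, and the part of these in its values was not tested.

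Within Mcu-/- cells zymosan moved most of the set upwards, with Mitf, Ctsl, Gpnmb, Gla and Cd68 as the largest rises and Tfeb, Sgsh, Gusb, Man2b1 and Atp6v0a1 as the largest falls. In edgeR's test 32 genes were higher (66.7%) and 7 lower (14.6%), against 34.3% and 39.4% of all genes, and without untreated Mcu-/- replicate 4 there were 36 higher and 9 lower, against 39.2% and 42.4%, with Scarb2, Npc1, Fuca1 and Atp6v1b2 added to the higher and Hexa and Atp6v0d1 to the lower genes. Plain library totals shifted the median of all genes by -0.52, gave 15 higher and 19 lower, and turned the sign of Lamp1, Laptm5, Mcoln1, Slc11a1, Ctsh, Tpp1, Glb1, Neu1, Atp6v0c and Atp6v1c1, all called higher otherwise, while Cd63, Ctsa, Ctsd, Naglu, Lipa, Atp6ap1 and Atp6v1h kept their sign and lost the call. The median log2 fold change was 0.51 over the set and -0.06 over all genes, and 32 genes did not overlap between the groups, against 61.7% of all genes (45 without replicate 4, against 82.7%).

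Tfeb fell by 3.23 on the log2 scale and Sgsh fell by 1.31. Mitf rose by 2.65 ± 0.12 and Ctsl by 2.36 ± 0.35, with each zymosan library above each untreated one, replicate 4 included. Gpnmb rose by 1.73 ± 0.45, Gla by 1.59 ± 0.38 and Cd68 by 1.42 ± 0.33. Without replicate 4 the log2 fold changes of Gpnmb, Ctsl and Cd68 were 2.93, 3.17 and 2.18. Man2b1 and Gusb were lower in Mcu-/- cells by log2 values of -0.59 ± 0.11 and -0.66 ± 0.09. In WT cells their log2 values were -0.17 and -0.15, which did not pass with all libraries (edgeR adjusted p = 0.143 and 0.0832) but passed as lower without untreated Mcu-/- replicate 4 and, at -0.66 and -0.65, under plain library totals. Outside the set 42 of 84 genes were higher (50%) and 24 lower (28.6%), against 34.3% and 39.4% of all genes. Without replicate 4 the counts were 47 and 27, against 39.2% and 42.4% of all genes. With all libraries Tfec (log2 3.72 ± 0.09) and Mcoln2 (2.38 ± 0.09) led upwards, and Flcn (-2.10 ± 0.09) and Slc36a1 (-1.86 ± 0.11) downwards.

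The difference between the zymosan responses of the genotypes was tested directly as an interaction term. In edgeR's test the response was higher in Mcu-/- than in WT cells for 11 genes (22.9%) and lower for 6 (12.5%), against 15.2% and 20% of all genes. Without untreated Mcu-/- replicate 4 it was higher for 30 (62.5%) and lower for 6, against 31% and 29.3%. Among the membrane proteins, for example, the higher count was 1 of 7 with that library and 6 without it. So the count of genes with a higher response turned on that 1 library, as did the sizes: Gpnmb had a difference of 1.01 ± 0.60 (edgeR adjusted p = 0.201) with it and 2.22 ± 0.07 (1.54e-25) without it, and Ctsl of 1.13 ± 0.45 (0.0587) and 1.95 ± 0.04 (5.13e-32).

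**Figure D5:**
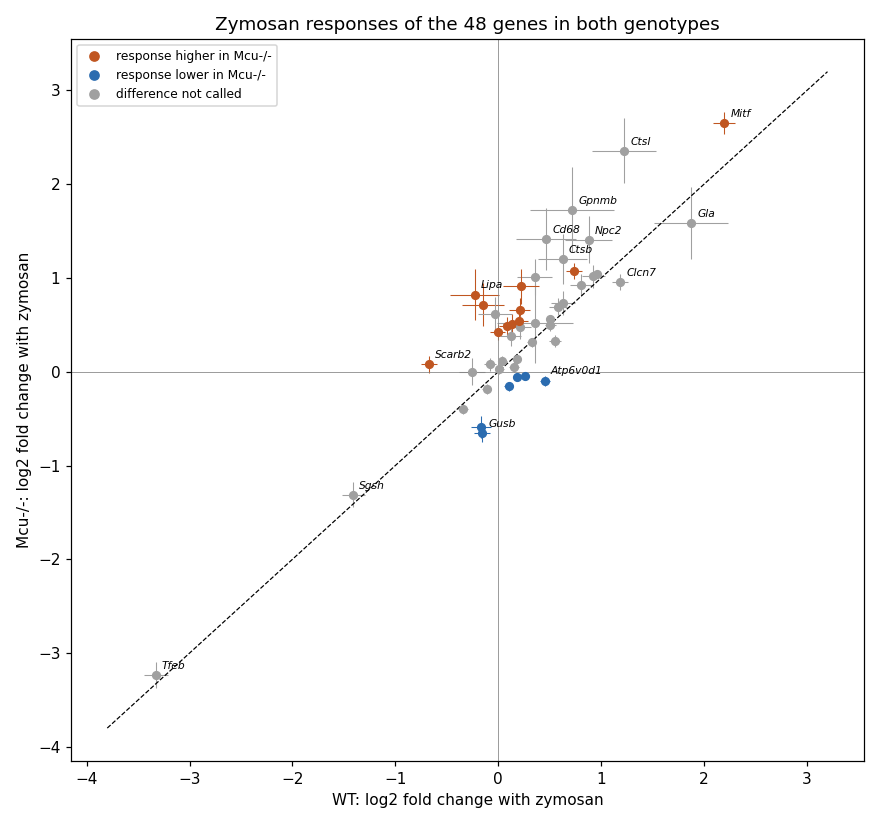
Log2 fold change with zymosan in WT (x axis) and Mcu-/- cells (y axis) for the 48 genes, from the fit of all 20 libraries, with bars of 1 SE and a dashed line where both are equal; orange and blue genes differed between genotypes by the interaction test (11 and 6 genes). Tfeb and Sgsh lie near the line while Lipa and Scarb2 lie above it and Atp6v0d1 below it; under plain library totals the medians of all genes on the axes shift by -0.49 and -0.52, and 8 genes called in WT and 10 called in Mcu-/- cells change sign.

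Genes whose response was higher in Mcu-/- cells with all libraries included Lipa, which was at 459.5 and 392 CPM in WT cells without and with zymosan and at 698 and 1236 CPM in Mcu-/- cells, where untreated replicate 4 alone lifts the first of these means. The difference of its responses was 1.05 ± 0.36 on the log2 scale (edgeR adjusted p = 0.0301) and 1.65 ± 0.04 without replicate 4 (adjusted p = 1.79e-29). Ctsd differed by 0.86 ± 0.31, and Atp6v0d2 by 0.69 ± 0.26. Scarb2 fell in WT cells, and its responses differed by 0.75 ± 0.12 (edgeR adjusted p = 1.82e-04). Its own response in Mcu-/- cells has no settled direction, with a log2 of 0.08 ± 0.09 that did not pass, 0.22 ± 0.05 without replicate 4 (edgeR adjusted p = 4.70e-05) and -0.44 under plain library totals (adjusted p = 4.53e-05). Ctsa, Mitf and Mcoln1 differed by 0.46 ± 0.16, 0.45 ± 0.16 and 0.43 ± 0.11. On the lower side, Atp6v0d1 had log2 responses of 0.45 in WT and -0.09 in Mcu-/- cells, a difference of -0.54 ± 0.07 (edgeR adjusted p = 2.21e-05). Gusb, Man2b1, Atp6v1d, Asah1 and Hexa had differences from -0.50 to -0.23. Tfeb differed by 0.10 ± 0.18 and Sgsh by 0.10 ± 0.17, neither past the test. Outside the set 19 of 84 genes had a higher (22.6%) and 22 a lower response (26.2%) in Mcu-/- cells, against 15.2% and 20% of all genes. Without replicate 4 the counts were 40 and 26, against 31% and 29.3% of all genes. With all libraries Tfec (1.52 ± 0.13) stood on one side, and Sort1 (-1.55 ± 0.29) and Fnip2, a partner of folliculin (-1.47 ± 0.38), on the other.

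The comparison of zymosan with and without BAPTA-AM asked which transcripts differ where cytosolic Ca2+ is chelated. Few of these genes passed the test, all by small steps, and under plain library totals no called gene changed sign while Ctsc lost its call. Mcoln1, Atp6v0a1, Atp6v1c1 and Tfeb were higher with the chelator, and Mitf, Atp6v1e1, Ctsc and Atp6v0c lower. In edgeR's test that was 4 higher (8.33%) and 4 lower (8.33%), against 6.43% and 6.33% of all genes, shares near the background. Without untreated Mcu-/- replicate 4, which is in neither group, 9 were higher (18.8%) and 17 lower (35.4%), against 15.3% and 16.5% of all genes; of the 10 proteases 5 were then lower, against 1 with all libraries, and of the 10 glycan hydrolases 4, against 0. None of the 48 was called with a log2 of 0.5 or more in either direction, against 1.22% higher and 1.85% lower of all genes, the median log2 was -0.04 over the set and 0.00 over all genes, and 19 genes did not overlap between groups, against 24.3%.

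Mitf was at 160.1, 151, 147, 167 and 145 CPM with zymosan alone and 119, 118, 125 and 119 CPM with BAPTA-AM added. Every chelated library was lower, though still well above the untreated ones, and the log2 difference was -0.36 ± 0.10 (edgeR adjusted p = 0.0262). Tfeb was at 5.28, 5.68, 4.70 and 4.35 CPM with BAPTA-AM against 3.74 CPM on average without, a log2 of 0.42 ± 0.13 (edgeR adjusted p = 0.0395) between overlapping low values. Mcoln1 was at 29.7, 30.1, 29.0, 26.4 and 31.0 CPM with zymosan alone and 35.8, 34.7, 37.3 and 32.7 CPM with BAPTA-AM. All chelated values were higher, with a log2 of 0.26 ± 0.07 (edgeR adjusted p = 0.0237). Ctsc was at 1312 ± 20.4 and 1096 ± 13.3 CPM (n = 5 and 4; log2 -0.26 ± 0.08, edgeR adjusted p = 0.0382).

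Ctsl was at 688, 664, 651 and 649 CPM with BAPTA-AM, lower in each library than with zymosan alone, but passed the test only without untreated Mcu-/- replicate 4 (log2 -0.36 ± 0.30, edgeR adjusted p = 0.531; 2.46e-14 without it). In the pump Atp6v1e1 was at 282, 266, 265, 274 and 272 CPM with zymosan alone and 225, 214, 219 and 226 CPM with BAPTA-AM, with no overlap (log2 -0.30 ± 0.04, edgeR adjusted p = 2.54e-05). Atp6v0c, the proton-carrying ring subunit gene, was lower by a log2 of -0.22 ± 0.06, with 2 annotated pseudogene copies that could share its reads, and Atp6v0a1 and Atp6v1c1 were higher by 0.17 ± 0.05 and 0.16 ± 0.04. Gpnmb, Glb1, Lamp1, Lamp2, Tfe3, Atp6v0d1 and Atp6v0d2 had log2 fold changes of 0.17, -0.09, -0.08, -0.01, 0.03, 0.04 and -0.04, none past the test with all libraries. Outside the set 7 of 84 genes were higher (8.33%) and 3 lower (3.57%), against 6.43% and 6.33% of all genes. Without untreated Mcu-/- replicate 4 the counts were 16 and 15, against 15.3% and 16.5% of all genes. With all libraries Flcn (0.57 ± 0.07) and the peptidase gene Dpp7 (0.33 ± 0.06) were highest. Cd164 (-0.30 ± 0.07) and Cln3, a lysosomal membrane protein gene (-0.28 ± 0.06), were lowest.

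The genes with the 5 largest genotype rises under zymosan can be set beside their log2 values with BAPTA-AM. They were picked by size in the first comparison, and the log2 values of the whole set with BAPTA-AM ran from -0.54 to 0.42. Smaller values with BAPTA-AM were therefore given by that choice. Both comparisons also use the 5 zymosan-treated WT libraries, so their values are only set side by side. Gpnmb had log2 fold changes of 2.73 in Mcu-/- cells and 0.17 with BAPTA-AM, Ctsl of 2.13 and -0.36, Cd68 of 1.91 and -0.15, Lipa of 1.66 and 0.17, and Ctsd of 1.46 and -0.10. None of the 5 passed the test with BAPTA-AM in the fit of all 20 libraries, and all 5 passed without untreated Mcu-/- replicate 4, Gpnmb and Lipa as higher and Ctsl, Cd68 and Ctsd as lower.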

How the data were processed

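RNA-seq of 20 BMDM cultures was analysed, and the members and gene lists were chosen with earlier results of these data known. The deposited table holds whole-number counts of reads per gene. Per the study's methods the authors trimmed reads with cutadapt, aligned them with STAR to mm10, counted them with HTSeq and tested them with DESeq2; FastQC and MultiQC stand in the submitters' processing notes. The annotation and strand setting of the counting were not given in the sources used here, so overlapping genes and pseudogene copies could share reads. Groups came from the labels. The 3 columns of zymosan-treated Mcu-/- cells carry other numbers than the labels, so they were used as a group only.

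From the counts, edgeR 4.0.16 (R 4.3.3, limma 3.58.1) fitted all 20 libraries with 1 coefficient per group, after filterByExpr (minimum count 10) left 11707 of 21963 genes, with trimmed mean of M values scaling. The quasi-likelihood test was used with Benjamini-Hochberg adjustment over all genes tested and a call at an adjusted p below 0.05; folds are on the log2 scale. CPM per kb used the exon union of the gene annotation. Library totals were 14420402 to 23954552 counts, and SDs cover the spread between cultures of a group, counting error included. Standard errors cover the spread over all libraries of a fit at once. They were taken as the absolute log2 fold change divided by the square root of the F statistic. The script was tested on simulated counts.

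Values were given for 11 fixed genes in all comparisons and for the 5 largest called rises and falls per comparison among genes reaching a group mean of 10 CPM, and for the 2 largest of each in the other lists, of which 1 gene is not reported here. Other members named in their role groups, the marker genes named singly and Ctsc in untreated cells were chosen after their values were seen. Alternatives were DESeq2 1.42.0, its size factors, plain library totals, other filters on low counts, a minimum log2 of 0.5, the compared groups alone, each library left out, and the replicate number as a block in the 17 libraries whose numbers could be tied to labels. Same-numbered libraries did not deviate together (correlations of -0.0549 to 0.0591), so the numbers were not taken to pair samples. Promoters and their sequences came from RefSeq, GRCm38.p6.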

Additional observations from a re-analysis of the deposited data

Results flagged for a closer look

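Among 116 checks of a named gene in a group of 4 or 5 libraries, 21 found 1 library far from the rest of its group by Dixon's criterion, which chance meets in about 1 in 20 groups. Of these, 17 were in untreated Mcu-/- replicate 4. Its high values were Mitf 52.8 CPM against 32.9 to 34.7 in the other 3 libraries, Gla 215 against 42.4 to 47.7, Ctsl 1670 against 408 to 423, and Clcn7 94.5 against 67.2 to 69.0. Gpnmb stood at 1630 CPM against 248 to 272, Cd68 at 971 against 251 to 259, Lipa at 1410 against 460 to 463, and Ctsd at 6150 against 2290 to 2410. Atp6v1c1 was at 178 CPM against 152 to 154, Atp6v0d2 at 15 against 7.01 to 8.24, Ctsa at 920 against 551 to 579, Glb1 at 113 against 65.1 to 71.1, Lamp1 at 1330 against 1040 to 1080, and Lamp2 at 679 against 455 to 480. Its low values were Atp6v0d1 at 149 CPM against 178 to 183, Man2b1 at 302 against 491 to 499, and Ctsc at 504 against 727 to 758.

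In the other groups, Mitf in zymosan with BAPTA-AM replicate 3 was at 125 CPM against 118 to 119, and Gla in replicate 1 of that group at 146 against 162 to 165. Sgsh in untreated WT replicate 1 was at 25.6 CPM against 29.7 to 30.6, and Gusb in zymosan-treated WT replicate 4 at 259 against 274 to 277.

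Zymosan responses differed between genotypes by the interaction term (edgeR adjusted p below 0.05 over all genes) for 17 of the 48 genes. The response of Mcu-/- cells minus that of WT cells was 1.05 on the log2 scale for Lipa, 0.86 for Ctsd, 0.75 for Scarb2, 0.69 for Atp6v0d2, 0.46 for Ctsa, 0.45 for Mitf, 0.43 for Mcoln1 and 0.34 for Ctsc, and for Ctsh, Tpp1 and Atp6ap1 it was 0.40, 0.38 and 0.34. It was -0.54 for Atp6v0d1, -0.50 for Gusb, -0.42 for Man2b1, -0.31 for Atp6v1d, -0.26 for Asah1 and -0.23 for Hexa. Ctsc did not pass under plain library totals.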

How the results depend on the processing

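Counts of the 48 genes called by edgeR moved by over 1.5 times as follows, and the cause was not tested. Zymosan in WT cells gave 23 higher and 5 lower, against 8 and 27 under plain library totals, 10 lower with the compared groups alone, and 15 and 3 with a minimum log2 of 0.5. In Mcu-/- cells it gave 32 and 7, against 15 and 19 under plain totals and 4 lower with the minimum log2. The genotype comparison under zymosan gave 6 lower, against 3 with the minimum log2. BAPTA-AM gave 4 and 4, against 7 higher under plain totals, 2 higher with every gene of at least 1 count, 9 and 17 with the groups alone, and 0 and 0 with the minimum log2. The untreated genotype comparison gave 0 higher, against 1 with DESeq2 and 6 with the groups alone without untreated Mcu-/- replicate 4, a setting chosen after seeing the data. The interaction gave 11 and 6, against 7 higher with every gene of at least 1 count, 3 with the groups alone, 28 with that setting chosen after seeing the data, and 4 and 2 with the minimum log2.

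Leaving out 1 library at a time gave 20 to 32 higher and 4 to 10 lower for zymosan in WT cells, 25 to 31 and 6 to 8 for genotype under zymosan, 1 to 9 and 2 to 17 for BAPTA-AM, 0 to 7 and 0 for genotype untreated, 31 to 36 and 7 to 9 for zymosan in Mcu-/- cells, and 3 to 30 and 5 to 6 for the interaction. Untreated Mcu-/- replicate 4 gave the highest of each: without it the counts were 10 lower for zymosan in WT cells, 9 and 17 for BAPTA-AM, 7 higher for genotype untreated and 30 higher for the interaction. For BAPTA-AM, higher counts were 1 without zymosan-treated WT replicate 4 or BAPTA-AM replicate 2 and 2 without BAPTA-AM replicate 1 or 3, and lower counts were 2 without zymosan-treated WT replicate 1 or 4 or BAPTA-AM replicate 1, 2 or 4. For genotype untreated, 1 was higher without untreated Mcu-/- replicate 1, 2 or 3. For the interaction, higher counts were 5 without untreated WT replicate 2, 3 or 4, 7 without zymosan-treated WT replicate 1, 4 or 5, 4 without untreated Mcu-/- replicate 1, 2 or 3, and 3 without any 1 of the zymosan-treated Mcu-/- columns 3, 4 and 5.

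With the replicate number as a block in 17 libraries, zymosan in WT cells gave 20 higher and 5 lower, BAPTA-AM 1 and 2, and genotype untreated 0 and 0; the numbers are not shown to pair the samples. No paired analysis was possible with zymosan-treated Mcu-/- cells because its columns' numbers could not be tied to the labels.

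Of 64 called log2 fold changes of single genes, 42 kept call and sign under every alternative run. Under plain totals the sign turned for Glb1 (-0.283), Ctsk (-0.128), Atp6v0d1 (-0.0417) and Atp6v0d2 (-0.271) with zymosan in WT cells, for Lamp2 (0.0490) and Atp6v0d2 (0.0218) with BAPTA-AM, and for Glb1 (-0.0415), Lamp1 (-0.0183), Mcoln1 (-0.0928) and Ctsk (-0.00123) with zymosan in Mcu-/- cells. Size factors of DESeq2 and its test turned Mcoln1 with zymosan in WT cells (0.0341 and 0.0344) and the interaction of Lamp1 (0.00195 and 0.00203), which also turned with 10 counts in every library (0.00430). With the groups alone without untreated Mcu-/- replicate 4, Lamp1 was at -0.0120 for genotype untreated and 0.0736 for the interaction. Leaving out 1 library at a time, signs crossed for Mcoln1 with zymosan in WT cells (-0.0270 to 0.0296), Ctsk for genotype under zymosan (-0.519 to 0.230), Lamp2 (-0.0314 to 0.0152) and Atp6v0d2 (-0.0901 to 0.00789) with BAPTA-AM, Lamp1 (-0.0134 to 0.110), Tfeb (-0.0150 to 0.0996), Tfe3 (-0.0830 to 0.00512) and Mcoln1 (-0.117 to 0.0355) for genotype untreated, and Lamp1 (-0.0406 to 0.0833), Tfeb (-0.0138 to 0.194) and Ctsk (-0.242 to 0.507) for the interaction.

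Depth limits Ctsk, at 5 to 19 counts a library, and to a lesser degree Tfeb with zymosan and Atp6v0d2.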
